A study of Homo sapiens with 14 samples.

Results

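The genes described here are the regulators of sterol-sensing transcription and of cholesterol uptake and efflux: SREBF1, SREBF2, SCAP, INSIG1 and INSIG2, called the SREBP arm, and NR1H2, MYLIP, ABCA1 and ABCG1, called the LXR arm. They were chosen by name, as the probe sets annotated with only 1 of these 9 symbols. In all, 24 probe sets measured 8 of the 9 genes (5 of the SREBP arm and 3 of the LXR arm), out of 42892 probe sets with a gene symbol and 19775 genes. NR1H2 had no probe set annotated with its symbol alone and was not analysed here. The samples were 7 established human cell lines of T-cell acute lymphoblastic leukaemia (T-ALL): Jurkat, HPB-ALL, CCRF-CEM, TALL-1, ALL-SIL, P12-ICHIKAWA and Molt-4. Each line gave 1 array after 6 h with the phosphoinositide 3-kinase (PI3K) inhibitor AS605240, a small molecule, and 1 array after 6 h with vehicle, so there were 7 AS605240 arrays and 7 vehicle arrays. AS605240 was given at the IC50 concentration of each line, so the dose was not the same in all of them, and all 14 cultures were kept in medium with serum, which carries lipoprotein cholesterol. The lines are the replicates, no line has a second array per condition, and a difference between lines in the response therefore cannot be tested.

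SREBPs are transcription factors made as membrane proteins of the endoplasmic reticulum. When sterol is scarce SCAP escorts them to the Golgi, where they are cut and released to switch on genes of sterol and fatty acid synthesis and of lipoprotein uptake; when sterol is plentiful INSIG1 and INSIG2 hold SCAP back. LXRs, among them the protein of NR1H2, are nuclear receptors that sense oxysterols and act the opposite way, switching on the exporters ABCA1 and ABCG1 and the ubiquitin ligase MYLIP, which marks lipoprotein receptors for degradation. SREBF1 is a known target of LXR as well as a member of the SREBP arm.

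Signals are linear array intensities. Changes are AS605240 minus vehicle on the log2(signal + 16) scale, a scale that understates the change of dim genes. A gene was represented by its brightest probe set and was called when limma, fitted with line as a blocking term, gave an adjusted p under 0.05. The median signal of an array lay between 20.4 and 25.0 on the AS605240 arrays and between 19.9 and 24.5 on the vehicle arrays. The T-cell receptor genes CD3D, CD3E and CD3G were above a signal of 50 on all 14 arrays, as were 9 of 15 T-cell markers, against 0 of 7 B-cell, 1 of 5 myeloid and 2 of 8 epithelial and fibroblast markers. The summed signal of the T-cell markers was 12100 to 26212 on AS605240 arrays and 12739 to 26969 on vehicle arrays. On the AS605240 arrays the spiked poly-A control RNAs were higher by 0.22 ± 0.17 (log2, SD, n = 7) and the array median by 0.033 ± 0.021, each in 7 of 7 lines. The hybridization controls changed by -0.46 in P12-ICHIKAWA and by 0.035 to 0.18 in the other lines. The part of these shifts in the results was not tested. The vehicle arrays of P12-ICHIKAWA and TALL-1 correlated at r = 0.994 across genes, against 0.953 for the next closest pair, Jurkat and Molt-4. Whether these lines are independent was not tested, and the value with both averaged to 1 line is given where it changed a call or a sign or moved by over 1.5 times. The arrays were of bulk RNA, in which fewer cells of a type and less RNA per cell cannot be told apart.

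The promoter sequences of 3 SREBP arm genes are shown. With AS605240 the mean changes of SREBF2 and INSIG1 were below 0 and that of SREBF1 was above 0, and none of these 3 genes was called. RefSeq windows on GRCh38.p14 matched 8 of the 9 symbols, INSIG2 with more than 1 window, with ABCG1 unmatched. The 250 bases before the transcription start are printed 5′ to 3′ on the gene's strand, and capitals mark exact matches on either strand to the sterol element (TCACNCCAC), the E-box (CACGTG), the NF-Y box (CCAAT) and the Sp1 box (GGGCGG).
SREBF2, chr22:41832855-41833104, plus strand: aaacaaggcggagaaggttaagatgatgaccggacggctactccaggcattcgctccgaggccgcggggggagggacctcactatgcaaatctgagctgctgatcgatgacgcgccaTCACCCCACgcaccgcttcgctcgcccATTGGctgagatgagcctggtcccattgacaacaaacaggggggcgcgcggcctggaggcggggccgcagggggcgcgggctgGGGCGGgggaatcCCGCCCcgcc
INSIG1, chr7:155297628-155297877, plus strand: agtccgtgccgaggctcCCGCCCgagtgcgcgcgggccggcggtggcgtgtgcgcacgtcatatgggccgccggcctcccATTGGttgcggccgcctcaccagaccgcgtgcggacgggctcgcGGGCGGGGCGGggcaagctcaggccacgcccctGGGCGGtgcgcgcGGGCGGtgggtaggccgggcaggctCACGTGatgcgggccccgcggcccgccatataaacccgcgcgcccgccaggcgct
SREBF1, chr17:17836987-17837236, minus strand: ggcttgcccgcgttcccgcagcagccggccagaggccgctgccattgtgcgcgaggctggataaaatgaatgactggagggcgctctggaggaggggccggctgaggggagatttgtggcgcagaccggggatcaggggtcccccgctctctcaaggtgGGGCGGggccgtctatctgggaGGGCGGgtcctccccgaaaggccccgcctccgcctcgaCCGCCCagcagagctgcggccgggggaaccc
The SREBF2 window held the only sterol element among the 8 members, 133 to 125 bases before the start, together with 1 NF-Y box and 2 Sp1 boxes. A sterol element occurred in 0.883% of all 35116 promoter windows of the same length. The INSIG1 window held 1 E-box, 1 NF-Y box and 5 Sp1 boxes, of which 2 overlap in the run GGGCGGGGCGG. The SREBF1 window held 3 Sp1 boxes and none of the other motifs. The E-box was present in 6.34% of all windows and in 3 of the 8 members (SCAP, INSIG1 and ABCA1), the NF-Y box in 32% and the Sp1 box in 42.6% of all windows. The LXR element, a direct repeat with a spacer of 4, was present in 0.0142% of windows and in no member. A match describes the letters of the window and not a bound site.

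With AS605240 the only member gene called was ABCG1, which rose. Of the 8 measured genes, 0 were lower and 1 was higher, and 7 were not called by limma. At an unadjusted p under 0.05, 2 were lower (SREBF2 and INSIG1) and 2 higher (SCAP and ABCG1). Over all genes tested, 7.03% were called lower and 11.8% higher, so the members' counts lay close to the background. The median change of the 8 genes was 0.011, against 0.013 over all genes. By probe set, 1 of 24 was lower (background 6.03%) and 3 of 24 were higher (background 10.4%). With a fold over 1.5 added to the call, 0 of the 24 passed in either direction, against 0.392% lower and 0.926% higher over all probe sets with a symbol, and the largest fold of a member probe set was 1.44.

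**Figure D1:**
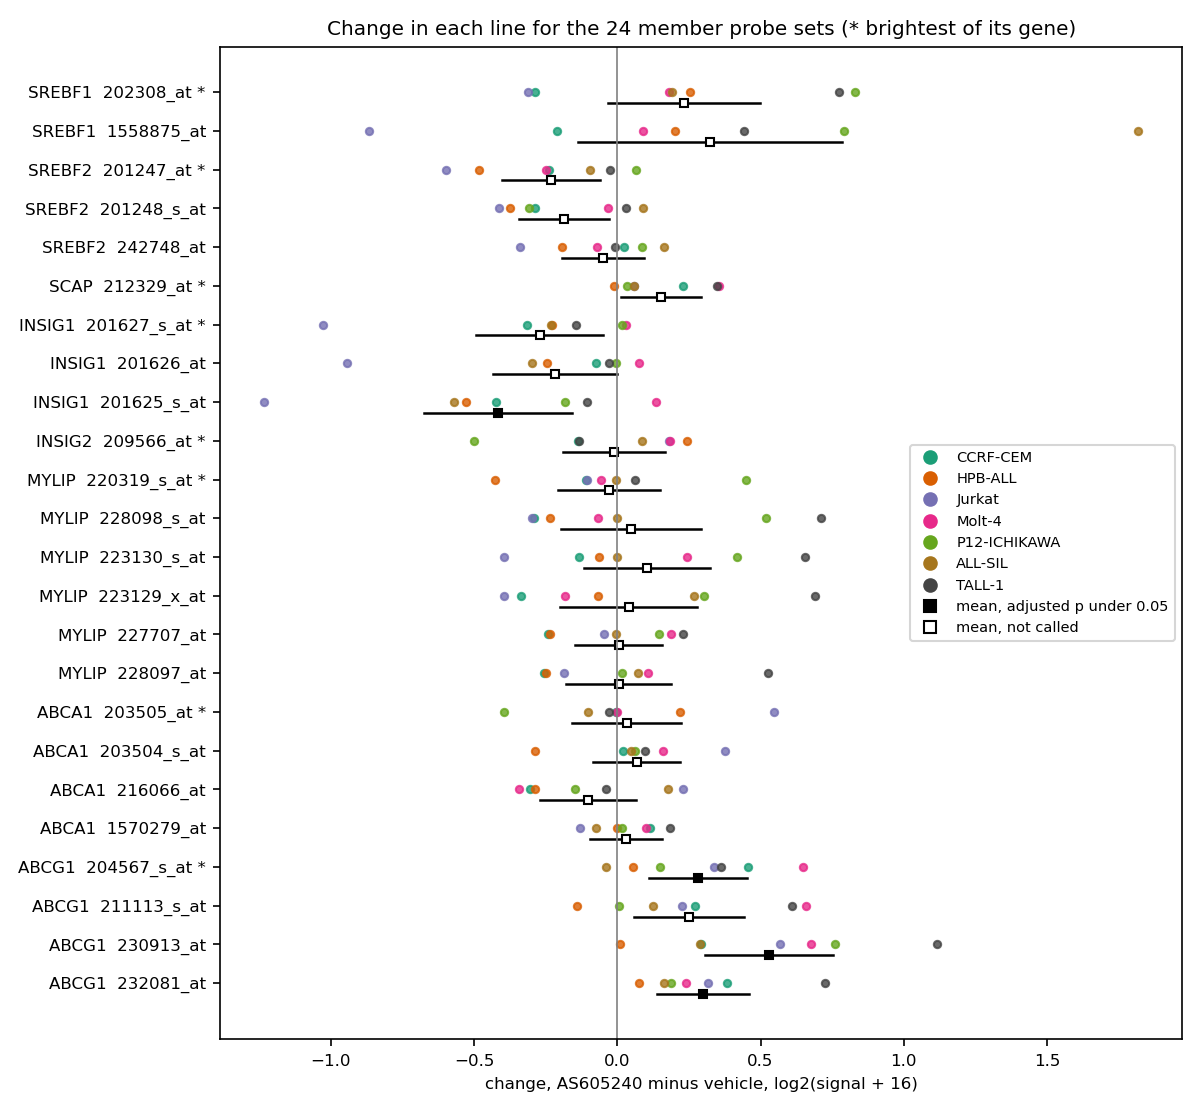
Change in each line, AS605240 minus vehicle on the log2(signal + 16) scale (x axis), for the 24 member probe sets (rows). Coloured points are the 7 lines and squares with bars are the limma mean and its 95% confidence interval, filled where the adjusted p is under 0.05. The 3 filled squares above 0 are ABCG1 probe sets and the 1 below 0 is an INSIG1 probe set, where Jurkat lies far to the left.

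SREBF1 encodes the SREBP1 isoforms, the main activators of fatty acid synthesis. Its signal was 289.6 in CCRF-CEM, 79.8 in HPB-ALL, 324 in Jurkat, 152 in Molt-4, 462 in P12-ICHIKAWA, 141 in ALL-SIL and 341 in TALL-1 with AS605240. With vehicle it was 357, 64.4, 406, 132, 253, 122 and 193 in the same order of lines. The AS605240 values were above the vehicle values in 5 lines and below them in CCRF-CEM and Jurkat, and the ranges of the groups overlapped. The mean change was 0.23 (SE 0.12, limma adjusted p = 0.240, n = 7 lines). It was 0.13 without P12-ICHIKAWA, 0.14 without TALL-1 and 0.14 with both lines averaged. It was 0.83 in P12-ICHIKAWA and 0.77 in TALL-1, between 0.18 and 0.25 in HPB-ALL, Molt-4 and ALL-SIL, -0.29 in CCRF-CEM and -0.31 in Jurkat. The dimmer second probe set showed the same split, with 0.79 in P12-ICHIKAWA, 0.44 in TALL-1, -0.21 in CCRF-CEM and -0.87 in Jurkat. On that probe set ALL-SIL had a signal of 40.8 with AS605240 and 0.11 with vehicle, a change of 1.82 that starts from a vehicle value near 0.

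SREBF2 encodes SREBP2, the main activator of sterol synthesis and one of its own targets. Its lowest, median and highest signals were 132, 244 and 348 with AS605240, against 160.3, 322 and 362 with vehicle. The AS605240 value was below the vehicle value in 6 of 7 lines, with P12-ICHIKAWA the exception, and the group ranges overlapped. The mean change was -0.23 (SE 0.079, adjusted p = 0.0579), which did not pass the threshold. It reached the threshold with P12-ICHIKAWA and TALL-1 averaged (-0.27, adjusted p = 0.0358) and without P12-ICHIKAWA (-0.28, adjusted p = 0.0308). By line the change was -0.60 in Jurkat, -0.48 in HPB-ALL, -0.25 in Molt-4, -0.24 in CCRF-CEM, -0.10 in ALL-SIL, -0.02 in TALL-1 and 0.07 in P12-ICHIKAWA. A second probe set gave -0.19 (adjusted p = 0.109, 5 of 7 lines lower) and the remaining one, below a signal of 50 on every array, gave -0.05 (adjusted p = 0.719).

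Between the paralogs, the change of SREBF1 exceeded that of SREBF2 by 0.46 ± 0.32 (SD, n = 7), in 6 of 7 lines. An exact two-sided sign-flip test over the lines gave p = 0.0312, or 0.0938 adjusted over the 3 paralog pairs tested, where the smallest p that 7 lines allow is 0.0156. Only Molt-4, ALL-SIL, HPB-ALL and TALL-1 had SREBF1 higher and SREBF2 lower at once.

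SCAP, the escort of the SREBPs, had lowest, median and highest signals of 129, 342 and 389 with AS605240, against 130.1, 301 and 334 with vehicle. The AS605240 value was higher in 6 of 7 lines and the groups overlapped. SCAP was not called (mean change 0.15, SE 0.064, adjusted p = 0.124). The increases were 0.36 in Molt-4, 0.35 in TALL-1 and 0.23 in CCRF-CEM, and the other lines lay between -0.01 and 0.06.

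INSIG1 retains SCAP in the endoplasmic reticulum and is itself a target of SREBP. Its brightest probe set read 733 in CCRF-CEM, 538 in HPB-ALL, 1314 in Jurkat, 856 in Molt-4, 3402 in P12-ICHIKAWA, 875 in ALL-SIL and 2034 in TALL-1 with AS605240. With vehicle it read 917, 633, 2696, 839, 3365, 1029 and 2248 in the same order. The value was lower with AS605240 in 5 lines, and in Jurkat it was 0.49 times the vehicle value. The mean change was -0.27 (SE 0.10, adjusted p = 0.0877), with -1.03 in Jurkat and -0.32 to 0.03 in the other 6 lines. Without Jurkat it was -0.15 (adjusted p = 0.189).

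The other INSIG1 probe sets gave -0.22 (adjusted p = 0.178) and -0.42 (SE 0.12, adjusted p = 0.0290). The probe set that passed, 201625_s_at, had lowest, median and highest signals of 112, 209 and 677 with AS605240, against 169, 269 and 771 with vehicle. It was lower in 6 of 7 lines, by 1.23 in Jurkat, and Molt-4 was the exception at 0.14. The call was lost on leaving out CCRF-CEM (-0.41, adjusted p = 0.0596), HPB-ALL (-0.40, 0.0699), Jurkat (-0.28, 0.0638) or ALL-SIL (-0.39, 0.0751), and with an offset of 4 (-0.43, 0.102) or 64 (-0.36, 0.0858) in place of 16. Jurkat was the lowest line on all 3 INSIG1 probe sets, at -1.03, -0.94 and -1.23.

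INSIG2, the paralog of INSIG1, had lowest, median and highest signals of 116, 154 and 309.8 with AS605240, against 110.1, 160.3 and 259.6 with vehicle. On average INSIG2 changed by -0.011 (SE 0.084, adjusted p = 0.953), with 4 lines higher and 3 lower, and its 95% confidence interval was -0.19 to 0.17. P12-ICHIKAWA was lowest at -0.50 and HPB-ALL highest at 0.24. With P12-ICHIKAWA and TALL-1 averaged the mean was 0.039. The change of INSIG1 minus that of INSIG2 was -0.26 ± 0.52 (SD, n = 7), below 0 in 6 of 7 lines (exact sign-flip p = 0.266, adjusted p = 0.266). It was -0.10 without Jurkat (exact sign-flip adjusted p = 0.531) and -0.39 without P12-ICHIKAWA (0.0938).

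**Figure D2:**
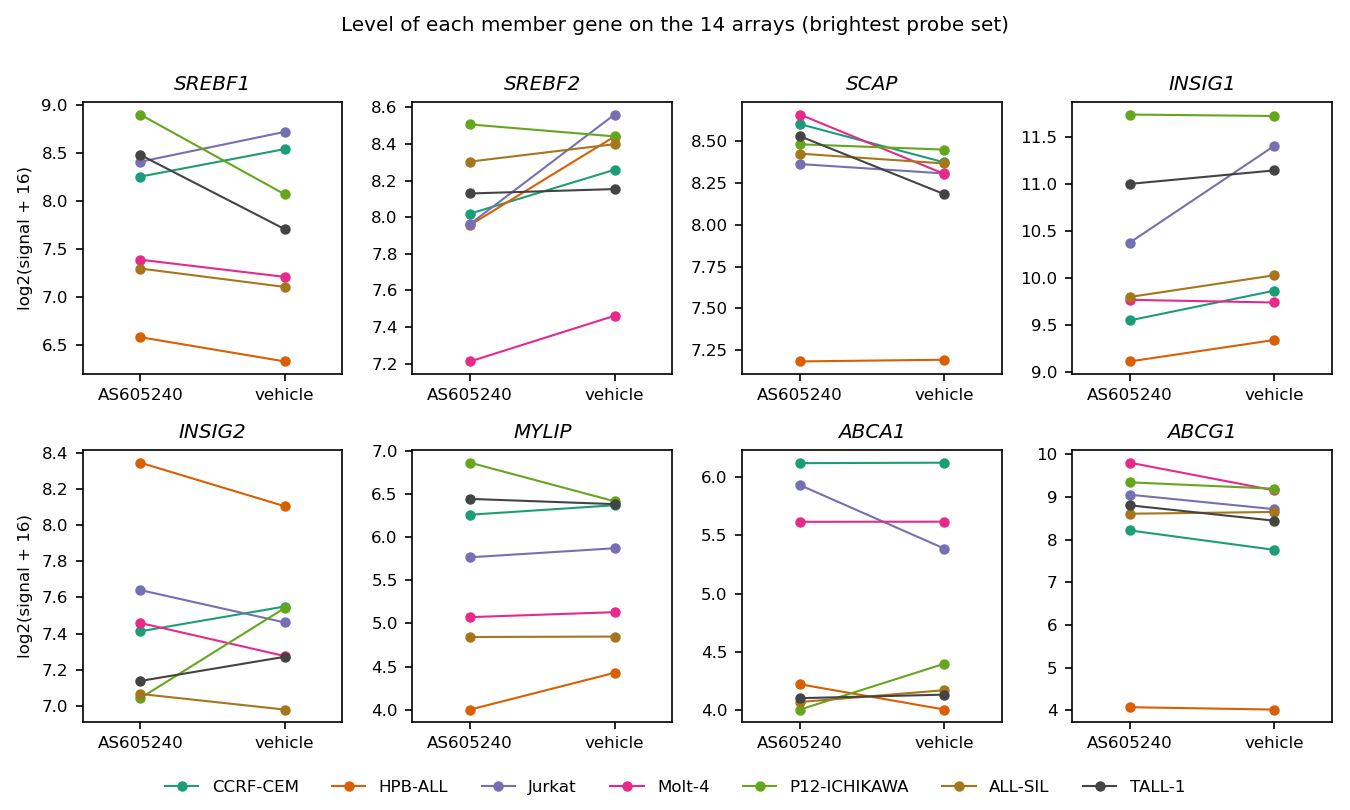
Level of each of the 8 measured genes by its brightest probe set, as log2(signal + 16) (y axis, a separate range in each panel), on the AS605240 and vehicle array of each line (points joined by a line, 1 colour per line). The spread between lines is larger than the treatment change for most panels: HPB-ALL lies far below the other lines for SCAP and ABCG1 and Molt-4 for SREBF2, and the steep Jurkat line in the INSIG1 panel is its change of -1.03.

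ABCG1 exports cholesterol to high-density lipoprotein and is a classical LXR target. Its signal was 281 in CCRF-CEM, 515 in Jurkat, 878 in Molt-4, 634 in P12-ICHIKAWA, 374 in ALL-SIL and 431 in TALL-1 with AS605240. With vehicle it was 201, 404, 554, 569, 385 and 332 in the same order. In HPB-ALL it was below 1 on both arrays (0.787 with AS605240 and 0.154 with vehicle). The AS605240 value was higher in 6 of 7 lines, with ALL-SIL the exception, and the groups overlapped. ABCG1 rose by 0.28 (SE 0.079, limma adjusted p = 0.0233, fold 1.22). The change was 0.65 in Molt-4, 0.46 in CCRF-CEM, 0.36 in TALL-1, 0.34 in Jurkat, 0.15 in P12-ICHIKAWA, 0.06 in HPB-ALL and -0.04 in ALL-SIL. The call was lost on leaving out CCRF-CEM (0.25, adjusted p = 0.0664), Jurkat (0.27, 0.0598), Molt-4 (0.22, 0.0709) or TALL-1 (0.27, 0.0621), and it held without HPB-ALL, P12-ICHIKAWA or ALL-SIL.

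The other ABCG1 probe sets pointed the same way. Probe set 230913_at was higher in 7 of 7 lines by 0.53 (SE 0.10, adjusted p = 0.00294, fold 1.44). Its lowest, median and highest signals were 1.73, 98.2 and 179 with AS605240, against 1.63, 53.5 and 99.3 with vehicle, and TALL-1 had the largest change at 1.11. Probe set 232081_at, under a signal of 50 on every array, was higher in 7 of 7 lines by 0.30 (adjusted p = 0.0122). In HPB-ALL the signals of 230913_at and 232081_at were 1.74 or less, and the changes counted as higher were 0.0086 and 0.077. Probe set 211113_s_at was higher in 6 of 7 lines by 0.25 (adjusted p = 0.0767) and was not called. The probe sets 230913_at and 232081_at kept their calls on leaving out any 1 line, with adjusted p of at most 0.0113 and 0.0345.

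ABCA1, the exporter that loads apolipoprotein A-I, was dim. Its brightest probe set passed a signal of 50 on 2 of 14 arrays, both from CCRF-CEM, with 53.7 under AS605240 and 53.9 under vehicle. Jurkat read 45.1 with AS605240 and 25.8 with vehicle, Molt-4 read 33.1 in both, and the remaining 4 lines were at 2.62 or less with AS605240 and at 5.05 or less with vehicle. On average ABCA1 changed by 0.033 (SE 0.089, adjusted p = 0.863, 2 of 7 lines higher), with 0.55 in Jurkat as the highest. It was -0.052 without Jurkat, 0.0024 without HPB-ALL, 0.10 without P12-ICHIKAWA, 0.056 without ALL-SIL and 0.074 with P12-ICHIKAWA and TALL-1 averaged. The 3 other probe sets gave -0.10 to 0.07 and none was called. The change of ABCA1 minus that of ABCG1 was -0.25 ± 0.35 (SD, n = 7), below 0 in 5 of 7 lines (exact sign-flip p = 0.109, adjusted p = 0.164). In the 4 lines where ABCA1 was near 0, its change was 0.22 in HPB-ALL, -0.40 in P12-ICHIKAWA, -0.10 in ALL-SIL and -0.031 in TALL-1. The ABCG1 changes were 0.06, 0.15, -0.04 and 0.36 in the same order. Of these 4 lines, ABCA1 had the larger change in size in HPB-ALL, P12-ICHIKAWA and ALL-SIL, and ABCG1 in TALL-1. In Molt-4 and CCRF-CEM ABCA1 changed by -0.0012 and -0.0038, while ABCG1 rose by 0.65 and 0.46. The difference was above 0 in HPB-ALL and in Jurkat, where ABCA1 changed by 0.55 and ABCG1 by 0.34.

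MYLIP, the ubiquitin ligase, was also dim. Its brightest probe set had lowest, median and highest signals of 0.015, 38.5 and 101 with AS605240, against 5.52, 42.6 and 69.5 with vehicle, and 6 of 14 arrays passed 50. The mean change was -0.028 (SE 0.083, adjusted p = 0.877, 2 of 7 lines higher). P12-ICHIKAWA read 101 with AS605240 and 69.5 with vehicle, a change of 0.45, and HPB-ALL read 0.015 with AS605240 and 5.52 with vehicle, a change of -0.43. TALL-1 changed by 0.06, ALL-SIL by -0.01, and Jurkat, CCRF-CEM and Molt-4 lay between -0.11 and -0.06. The mean was 0.039 without HPB-ALL, -0.11 without P12-ICHIKAWA, -0.043 without TALL-1, -0.014 without CCRF-CEM, -0.015 without Jurkat and -0.075 with P12-ICHIKAWA and TALL-1 averaged. On 3 further probe sets (228098_s_at, 223130_s_at and 223129_x_at) P12-ICHIKAWA changed by 0.52, 0.42 and 0.30 and TALL-1 by 0.71, 0.66 and 0.69, while Jurkat changed by -0.30, -0.40 and -0.40. The lines in which MYLIP was higher with AS605240 on those probe sets included P12-ICHIKAWA and TALL-1, where SREBF1 was also highest in its change, but no MYLIP probe set passed the test over the 7 lines.

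Set against each other by line, the mean change of the 5 SREBP arm genes was -0.026 ± 0.17 (SD, n = 7) and that of the 3 LXR arm genes was 0.096 ± 0.12. The SREBP arm minus the LXR arm was -0.12 ± 0.24, below 0 in 3 of 7 lines: -0.60 in Jurkat, -0.26 in CCRF-CEM and -0.10 in Molt-4. In the other 4 lines it lay between 0.0056 and 0.052. Without Jurkat the SREBP arm mean was 0.027 and the difference -0.042. With P12-ICHIKAWA and TALL-1 averaged the SREBP arm mean was -0.051, and without CCRF-CEM, Molt-4, P12-ICHIKAWA or TALL-1 it was -0.0052, -0.047, -0.045 and -0.058. With SREBF1 left out, the SREBP arm averaged -0.091 ± 0.13 and was below 0 in 5 of 7 lines. The arms therefore differed by less than the spread between lines. Since the members were chosen with results known, no test was made of the arm means.

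**Figure D3:**
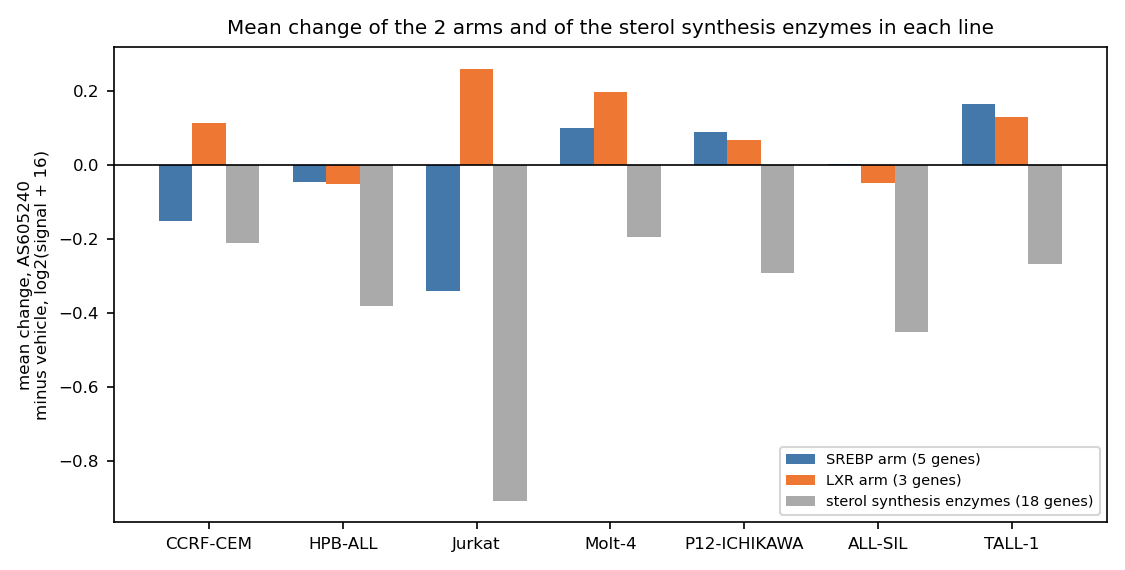
Mean change, AS605240 minus vehicle on the log2(signal + 16) scale (y axis), of the SREBP arm (5 genes), the LXR arm (3 genes) and 18 sterol synthesis enzymes (bars) in each of the 7 lines. The enzyme mean is below 0 in every line and lowest in Jurkat at -0.91, where the arms are also farthest apart.

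The genes around the members were counted by function. Of 18 measured sterol synthesis enzymes, which SREBP2 activates, 12 fell, 0 rose and 6 were not called (over all genes 7.03% were lower and 11.8% higher), with a median change of -0.33 against 0.013 over all genes. At an unadjusted p under 0.05 in limma, 2 of them were higher. IDI1, the isopentenyl diphosphate isomerase, fell by 0.78 (SE 0.098, adjusted p = 1.3e-04). SQLE, the squalene epoxidase, fell by 0.85 (SE 0.11, adjusted p = 1.5e-04), and DHCR7, the last reductase of the pathway, fell by 0.88 (SE 0.12, adjusted p = 1.9e-04), all 3 in 7 of 7 lines. In Jurkat SQLE read 464 with AS605240 and 1469 with vehicle. The mean change of the 18 enzymes was -0.39 ± 0.25 (SD, n = 7 lines) and -0.91 in Jurkat, the line with the lowest change of SREBF2 and INSIG1.

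Of 15 measured fatty acid synthesis targets of SREBP1, 5 fell, 1 rose and 9 were not called, against the same 7.03% lower and 11.8% higher over all genes, with a median change of 0.012. FASN, the fatty acid synthase, fell by 0.68 (SE 0.082, adjusted p = 1.0e-04), and ELOVL6, a fatty acid elongase, fell by 0.32 (SE 0.057, adjusted p = 0.0014). The 1 that rose was LPIN1, a phosphatidate phosphatase, by 0.56 (SE 0.076, adjusted p = 2.1e-04). The lowest, median and highest FASN signals were 116, 165 and 182 with AS605240, against 147, 251 and 362 with vehicle. Of the targets not called, THRSP, PNPLA3, ACSS2, MLXIPL and ME1, named after their values were seen, were under a signal of 50 on every array. The median of the list is the change of ME1. SREBF1 itself did not pass the test.

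Of 17 measured genes of SREBP processing and degradation, 4 fell, 0 rose and 13 were not called (over all genes 7.03% were lower and 11.8% higher), with a median change of -0.075. At an unadjusted p under 0.05 in limma, 1 was higher. UBE2G2, a ubiquitin-conjugating enzyme of the endoplasmic reticulum, fell by 0.42 (SE 0.074, adjusted p = 0.0014), and TMEM147, a membrane protein there, fell by 0.30 (SE 0.066, adjusted p = 0.0059), both in 7 of 7 lines. PAQR3, which tethers SCAP and SREBP to the Golgi, fell by 0.36 (SE 0.088, adjusted p = 0.012), and the fourth was ERLIN2 (-0.20, adjusted p = 0.036), named after its value was seen. In UBE2G2 the lowest, median and highest signals were 234, 345 and 420.1 with AS605240, against 390.4, 445 and 532 with vehicle, so only part of the range was shared.

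Of 21 measured genes of cholesterol uptake, trafficking and storage, 3 fell, 5 rose and 13 were not called (background 7.03% lower and 11.8% higher), with a median change of -0.013. LRP8, a lipoprotein receptor family member that MYLIP is known to degrade, fell by 0.45 (SE 0.076, adjusted p = 0.0010). GRAMD1B and GRAMD1C, proteins that carry cholesterol from the plasma membrane to the endoplasmic reticulum, rose by 0.35 (SE 0.056, adjusted p = 7.1e-04) and by 0.48 (SE 0.078, adjusted p = 7.6e-04), though each was over a signal of 50 on only 3 of 14 arrays. Named after their values were seen, STARD4, a sterol transfer protein, and SCARB1, a lipoprotein receptor, also fell, and NPC1, NPC2 and OSBPL2, which move cholesterol out of or between organelles, also rose.

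Of 19 measured LXR partners, other LXR targets and genes of oxysterol metabolism, 0 fell, 3 rose and 16 were not called (background 7.03% lower and 11.8% higher, so the share that rose lay near the background), with a median change of 0.027, and 11 of the 16 were under a signal of 50 on every array. At an unadjusted p under 0.05 in limma, 0 were lower as well. NR1H3, which encodes the other LXR, rose by 0.55 (SE 0.082, adjusted p = 4.3e-04). Its lowest, median and highest signals were 70.8, 99.9 and 158 with AS605240, against 34.5, 66.7 and 116 with vehicle. RXRB, which encodes 1 of the RXR partners with which LXRs bind DNA, rose by 0.46 (SE 0.075, adjusted p = 7.6e-04), and NCOA2, a coactivator of nuclear receptors, by 0.41 (SE 0.075, adjusted p = 0.0016). All 3 were higher in 7 of 7 lines, and of the LXR arm members ABCG1 alone was called in the same direction. The other RXR genes of the list were not called, RXRA at -0.056 (adjusted p = 0.812) and RXRG, under a signal of 50 on every array, at 0.0042 (adjusted p = 0.984).

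**Figure D4:**
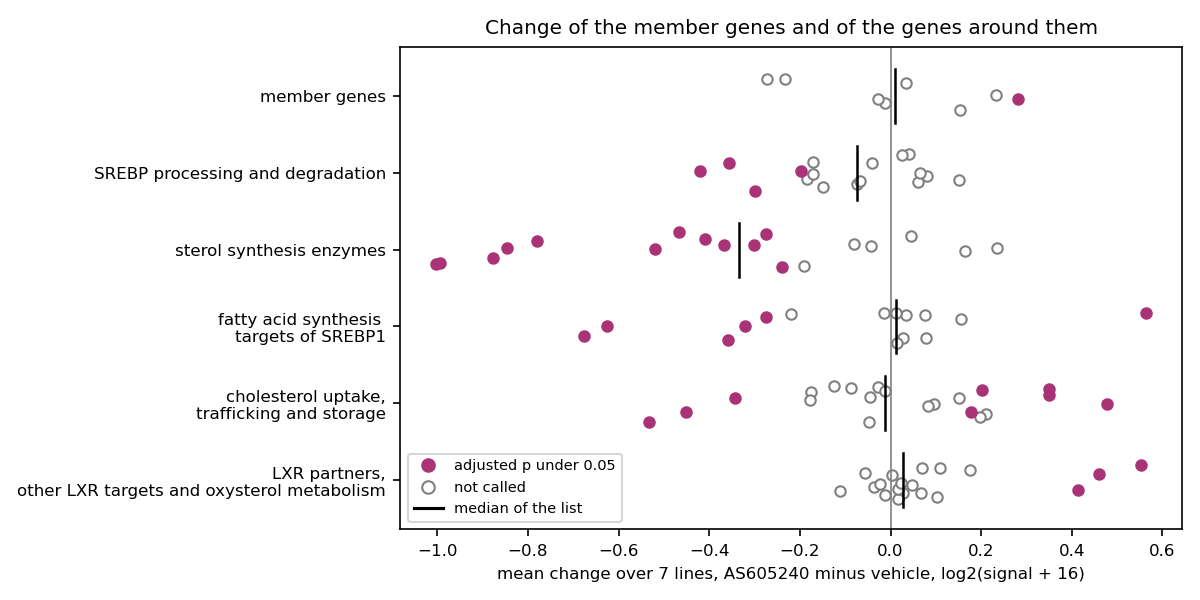
Mean change over the 7 lines, AS605240 minus vehicle on the log2(signal + 16) scale (x axis), of the 8 member genes and of the genes of 5 lists around them (rows, points spread vertically at random). Filled points passed an adjusted p under 0.05 and the black bar is the median of the row: 12 sterol synthesis enzymes lie on the left as filled points, while among the members only ABCG1 is filled.

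All 8 had a difference between lines in the moderated F test at an adjusted p under 0.05, but so did 66.9% of all genes. Levels are given as the mean of the 2 arrays of a line on the log2(signal + 16) scale. Neighbours in the order are called apart where their gap exceeds the 95% interval of a difference. The F test and this interval take the AS605240 and vehicle arrays of a line as its replicates, whose independence the labels do not give. The spread between the highest and lowest line was 2.50 for INSIG1, 2.11 for SREBF1, 1.30 for SCAP, 1.21 for INSIG2 and 1.14 for SREBF2. It was 5.44 for ABCG1, 2.43 for MYLIP and 2.02 for ABCA1, but the lowest line of these genes had signals near 0, where the offset of 16 sets the level, so the size of the spread depends on the offset. HPB-ALL was the lowest line for SREBF1, SCAP, INSIG1, MYLIP and ABCG1, and the highest line for INSIG2. It was also lowest for ABCA1 (4.11), but near a signal of 0 with TALL-1, ALL-SIL and P12-ICHIKAWA and with no neighbours apart among them.

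For ABCG1 the order was Molt-4 (9.48), P12-ICHIKAWA (9.27), Jurkat (8.88), ALL-SIL (8.63), TALL-1 (8.62), CCRF-CEM (7.99) and HPB-ALL (4.04). Molt-4 and P12-ICHIKAWA did not differ beyond the interval of 0.32, nor did Jurkat, ALL-SIL and TALL-1 as neighbours, and the other gaps were larger. For INSIG1 the order was P12-ICHIKAWA (11.73), TALL-1 (11.07), Jurkat (10.89), ALL-SIL (9.91), Molt-4 (9.75), CCRF-CEM (9.71) and HPB-ALL (9.23). P12-ICHIKAWA stood apart from TALL-1, Jurkat from ALL-SIL and CCRF-CEM from HPB-ALL, and the rest did not differ from their neighbours beyond 0.42.

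SREBF1 was highest in Jurkat (8.57), P12-ICHIKAWA (8.49), CCRF-CEM (8.40) and TALL-1 (8.09), with no gap between neighbours beyond 0.50. Below them Molt-4 (7.30) and ALL-SIL (7.20) did not differ from each other and HPB-ALL (6.46) was lowest. SREBF2 lay between 8.14 and 8.47 in 6 lines with no neighbours apart, and at 7.34 in Molt-4. SCAP lay between 8.34 and 8.49 in 6 lines with no neighbours apart, and at 7.19 in HPB-ALL. INSIG2 was highest in HPB-ALL (8.23), apart from Jurkat (7.55), and the other lines down to ALL-SIL (7.02) had no neighbours apart. Without HPB-ALL the F test no longer passed for SCAP (adjusted p = 0.720) and INSIG2 (0.0696), and without Molt-4 it no longer passed for SREBF2 (0.338).

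ABCA1 was measured above the array median in CCRF-CEM (6.12), Jurkat (5.66) and Molt-4 (5.62), with CCRF-CEM apart from Jurkat, and at 4.11 to 4.20 in the other 4 lines, which did not differ. MYLIP was highest in P12-ICHIKAWA (6.64), TALL-1 (6.42) and CCRF-CEM (6.32), lower in Jurkat (5.82), Molt-4 (5.10) and ALL-SIL (4.85), and lowest in HPB-ALL (4.21), with gaps beyond 0.34 after CCRF-CEM, Jurkat and ALL-SIL.

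The genes whose log2 level followed each member most closely over the 14 arrays were taken from the genes with a signal over 50 on at least 7 arrays, by Pearson r, as a description. The arrays share 7 lines, so r mostly follows the differences between lines. For SREBF2 the closest was STARD4 (r = 0.886), followed by GBE1 (0.880) and USP45 (0.869), and all 3 fell with AS605240, STARD4 by 0.53. SREBF2 was far lower in Molt-4 than in the other lines, and its r values were not recomputed without Molt-4. For INSIG1 it was FADS2 (0.949), a fatty acid desaturase, then STAMBPL1 (0.922) and HCST (0.920). For SREBF1 it was DPH5 (0.931), FLT1 (0.924) and PTTG1IP (0.921).

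The neighbours of genes with an extreme line rested in part on that line. For ABCG1 they were GADD45B (r = 0.994), GSTM1 (0.979) and FGD5-AS1 (0.978), and over the 12 arrays without HPB-ALL the values were 0.932, 0.789 and 0.767. For SCAP they were GRN (0.986), APEH (0.976) and POLR3GL (0.969), and without HPB-ALL 0.932, 0.656 and 0.849. For INSIG2 they were KYAT3 (0.917), CNOT1 (0.909) and DNMBP (0.906), and without HPB-ALL 0.651, 0.630 and 0.655. For MYLIP they were CNN2 (0.959), NDST3 (0.942) and SKAP1 (0.938), and for ABCA1 EPB41L4B (0.974), KLHDC8B (0.965) and C10orf95-AS1 (0.960), and all of these stayed at or above 0.920 without HPB-ALL. The levels of SCAP and ABCG1 correlated at 0.951 over the 14 arrays and at 0.341 without HPB-ALL.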

How the data were processed

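RNA of 7 T-ALL cell lines, each with AS605240 and with vehicle, was labelled in 1 cycle and hybridised to 14 one-colour Affymetrix arrays. The deposited values are linear intensity per probe set, which the authors computed with the PLIER method in Affymetrix Expression Console 1.3.1.187, and any normalization step ahead of it was not given in the sources used here. PLIER can return values near 0 for dim probe sets, so an offset of 16 was added before log2, as in the study's methods, which shrinks the changes of dim genes. Depth does not apply, and the number of arrays limits the precision.

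Of 54675 probe sets, 41091 carried a single gene symbol, 1801 carried more than 1, 11721 carried none, and the other 62 were array controls. Gene names came from the platform annotation, updated through the gene ID to the RefSeq symbol for 41037 probe sets. Groups and lines came from the sample labels. AS605240 minus vehicle was fitted with limma 3.58.1 (R 4.3.3; lmFit and eBayes, line as a block, Benjamini-Hochberg adjustment over all 42892 probe sets with a symbol, or over 19775 genes by their brightest single-gene probe set). The pairing is by cell line, which the labels give. The fit was checked on simulated data with known changes. Labels do not say whether the cultures of a line were independent. The p-values of the treatment change measure the spread of that change between lines. In the F tests between lines, the AS605240 and vehicle arrays of a line stand as its replicates. Paralog differences used exact sign-flip tests over lines.

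The members, gene lists and tests were chosen with earlier results of these data known. Genes named in the text are the members, up to 3 genes with the smallest p among those called in each list, the 3 genes most like each member, and the CD3 genes; any other is said to be named after its value was seen. Alternatives changed the offset, normalization, dim filter, tested probe sets, probe summary, prior, block, lines and arm membership.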

Additional observations from a re-analysis of the deposited data

Results flagged for a closer look

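In each of the 8 measured genes the AS605240 levels, the vehicle levels and the changes were each checked for a line far from the other 6, and 7 of these 24 groups of 7 values had one. Chance flags about 1 in 20 groups, and the AS605240 and vehicle levels of a gene share their lines. Levels and changes are on the log2(signal + 16) scale.

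HPB-ALL stood far below the other lines for ABCG1, at 4.07 with AS605240 (others 8.22 to 9.80) and 4.01 with vehicle (others 7.76 to 9.19). Its ABCG1 signal was below 1 on both arrays, so these levels are set by the offset of 16. HPB-ALL was also far below for SCAP, at 7.18 with AS605240 (others 8.36 to 8.66) and 7.19 with vehicle (others 8.18 to 8.45). Molt-4 stood below the other lines for SREBF2, at 7.21 with AS605240 (others 7.96 to 8.51) and 7.46 with vehicle (others 8.15 to 8.56). In each case both arrays of the line gave the low value. The change of INSIG1 in Jurkat was -1.03, with the other lines between -0.32 and 0.03, and the same line was lowest on the other INSIG1 probe sets.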

How the results depend on the processing

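On the log2 scale, SREBF1 (higher), SREBF2 (lower), SCAP (higher), INSIG1 (lower) and ABCG1 (higher) kept their direction under every alternative run. ABCG1 was called under 11 of 16 alternatives, and the arm means moved by less than 1 SD in all, though the SREBP arm mean was 0.027 without Jurkat. For genes near 0 the sign depended on the setting, with no call: ABCA1 was -0.024 with an offset of 4 and -0.00015 with arrays centred on the median, MYLIP was 0.010 with an offset of 64 and 0.029 with all probe sets of a gene averaged, and INSIG2 was 0.039 with P12-ICHIKAWA and TALL-1 averaged. The number of member genes called lower was 1 after quantile normalization, 2 with median centring, 2 after the dim filter, 1 with a trended prior and 1 with P12-ICHIKAWA and TALL-1 averaged, against 0. Member probe sets called lower numbered 0 with offsets of 4 and 64, 3 after quantile normalization, 3 with median centring, 3 after the dim filter, 2 with a trended prior and 2 with that pair averaged, against 1. The genes added were SREBF2 (adjusted p = 0.0475, 0.0286, 0.0272, 0.0463 and 0.0358) and INSIG1 with median centring (0.0491) and after the filter (0.0432). Sterol synthesis enzymes called higher numbered 1 with an offset of 64, 1 after quantile normalization, 1 with a trended prior and 2 after the filter. SREBP processing genes called higher numbered 1 with an offset of 64 and 1 after the filter, and fatty acid targets called higher numbered 2 with probe sets averaged. Uptake and trafficking genes called higher numbered 3 with an offset of 4 and 3 with median centring. The ABCA1 minus ABCG1 difference was -0.33 with probe sets averaged (adjusted p = 0.0469), with ABCA1 near a signal of 0 in 4 lines. Without the replicate block the counts were 0 for every list and for the members (6 genes lower and 19 higher in all); pairing by line is the study's design. The dim filter left ABCA1 and MYLIP out, so no arm value was made there. Median centring changed the share of calls that were higher to 50.8%, against 62.7%, and 1840 and 1901 genes were called lower and higher, against 1390 and 2339. Leaving out each line in turn gave 0 to 1 member genes lower (1 without P12-ICHIKAWA), 0 to 1 higher (0 without CCRF-CEM, Jurkat, Molt-4 or TALL-1) and 0 to 2 probe sets lower (2 without P12-ICHIKAWA, 0 without CCRF-CEM, HPB-ALL, Jurkat or ALL-SIL). It gave 0 to 2 sterol enzymes higher (2 without Jurkat), 1 to 2 fatty acid targets higher (2 without Molt-4) and 3 to 5 trafficking genes higher (3 without HPB-ALL, Molt-4 or ALL-SIL). It gave -0.054 to 0.070 for INSIG2, -0.11 to 0.039 for MYLIP and -0.052 to 0.10 for ABCA1. The causes were not tested. Dim signal limits ABCA1 and MYLIP, which passed a signal of 50 on 2 and 6 of 14 arrays.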

Other observations

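Across the 7 lines the changes of SREBF2 and ABCA1 were inversely related, with Pearson r = -0.936 and Spearman rho = -0.964, given as a description of the pair with the largest r in size among 28 pairs of members and picked after seeing all 28. A negative r is not a difference in sign: both changes were below 0 in CCRF-CEM, Molt-4, ALL-SIL and TALL-1. ABCA1 was at or near a signal of 0 in 4 of the lines, both changes share the 2 arrays of each line, and the points include the near-identical P12-ICHIKAWA and TALL-1. The next largest were INSIG2 and MYLIP (r = -0.854, rho = -0.607), INSIG1 and ABCA1 (r = -0.844, rho = -0.393) and SCAP and ABCG1 (r = 0.808, rho = 0.750).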
